A study of Danio rerio with 2 samples.

Results

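Genes of cholesterol synthesis, its regulation and cholesterol transport were examined in swim-trained and untrained zebrafish larvae. The set holds 32 genes, chosen by name and taken in pathway order. It comprises 21 enzymes of the route to cholesterol, 3 regulators of that route, and 8 genes of uptake, transport and esterification. Probes were assigned to them through the RefSeq accession printed for each probe. A probe was found for 26 of the 32 genes, out of 12900 genes with a named probe in all. The genes ggps1, fdft1, scap, abca1a, soat2 and lcat were not analysed here, because none of the probes carried an accession paired with them.

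The trained larvae were wild-type zebrafish of a Wageningen wild type X Tubingen wildtype (Zod2) background that swam daily in sessions of 3 hours from day 5 to day 10 after fertilisation. The control larvae had the same background and age and were labelled only as control. Whole larvae were collected at day 10, at the end of the day, and each condition was pooled from 10 fish that gave 400 ng of RNA each. The 2 pools were hybridised together on 2 Agilent 2-colour arrays, with trained RNA in Cy5 on array 1 and in Cy3 on array 2. Both arrays therefore carried the same pair of pools in opposite colours and count as 1 replicate, so no p-value or error across fish could be computed. In pools of whole larvae, fewer cells of a type and less RNA per cell cannot be told apart.

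Cholesterol is built from acetyl-CoA in a chain of reactions that first makes mevalonate, then isoprenoid diphosphates, then squalene, and finally the sterol rings that are trimmed to cholesterol. In mammals the transcription factor SREBP-2 switches on most of these enzymes together with the LDL receptor when membranes are low in sterol. The proteins SCAP and INSIG set whether SREBP-2 is released for this task. Liver, intestine and the developing nervous system are known for active cholesterol handling, and fish larvae draw on yolk and food lipids besides their own synthesis.

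Each value below is a log2 ratio of trained over control, rebuilt from the spot intensities with background correction and a dye normalisation. A value below 0 means less signal in the trained pool. A gene was represented by its brightest probe that was well above background in both channels of both arrays, which was available for 26 of 26 members with a probe and for 11121 genes in all. Differences were counted at 2 sizes, 1.2-fold or more and 1.5-fold or more, where each array reached that size with 1 shared sign. Over the measured probes the arrays correlated at r = -0.04 (Pearson), so the directions rest on the labels of the dye channels. The series' design text gives the same dye orientation for both arrays, whereas the sample titles give a swap. The median spot signal was 178.5 in Cy5 and 137.5 in Cy3 on array 1, and 155.5 and 136 on array 2, over backgrounds of 82.5, 24.5, 82 and 24. The number of arrays limits the precision.

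Few cholesterol genes reached 1.2-fold on both arrays, and those that did went both ways. None of the 26 measured members reached 1.5-fold on both arrays, a size reached by 0.692% of all measured genes. At 1.2-fold, acat2 and insig1 were lower in the trained pool, 2 of 26 members against 1.35% of all genes, and msmo1 was higher, 1 of 26 against 3.74%. In sign alone, 11 members were lower on both arrays, which is 42.3% of the 26, against 22.1% of all genes. A further 6 were higher on both arrays, which is 23.1%, against 24.3% of all genes, and 9 had opposite signs on the arrays. With the arrays centred on their medians in place of the intensity-dependent normalisation, 6 members were lower on both arrays, against 12.6% of all genes in that setting, and 4 were higher, against 24.4%. At 1.2-fold 1 was then lower, against 0.432% of all genes, and 2 were higher, against 3.82%. With the mean over a gene's probes, 0 members were 1.2-fold lower, against 0.872% of all genes. The members were picked for their shared pathway with earlier results of these data known, so the counts describe these pools and nothing was tested.

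The median log2 ratio of the 26 measured members was -0.070, at -0.12 on array 1 and -0.071 on array 2, against -0.0027 over all measured genes. Individual members ran from -0.47 for idi1 to 0.50 for msmo1. Their ratios were spread more widely than those of all genes, with an SD across genes of 0.25 against 0.19. The part of the ratio that followed the dye was not wider, at 0.17 among members and 0.20 among all genes. It exceeded the ratio of the pools in 9 of 26 members, or 34.6%, and in 53.6% of all genes. By construction these are the genes with opposite signs on the arrays, so this repeats the count of opposite signs given above. The 2 arrays' ratios correlated across the 26 members with r = 0.35 (Pearson) and rho = 0.35 (Spearman), which describes genes that share arrays and pools.

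**Figure D1:**
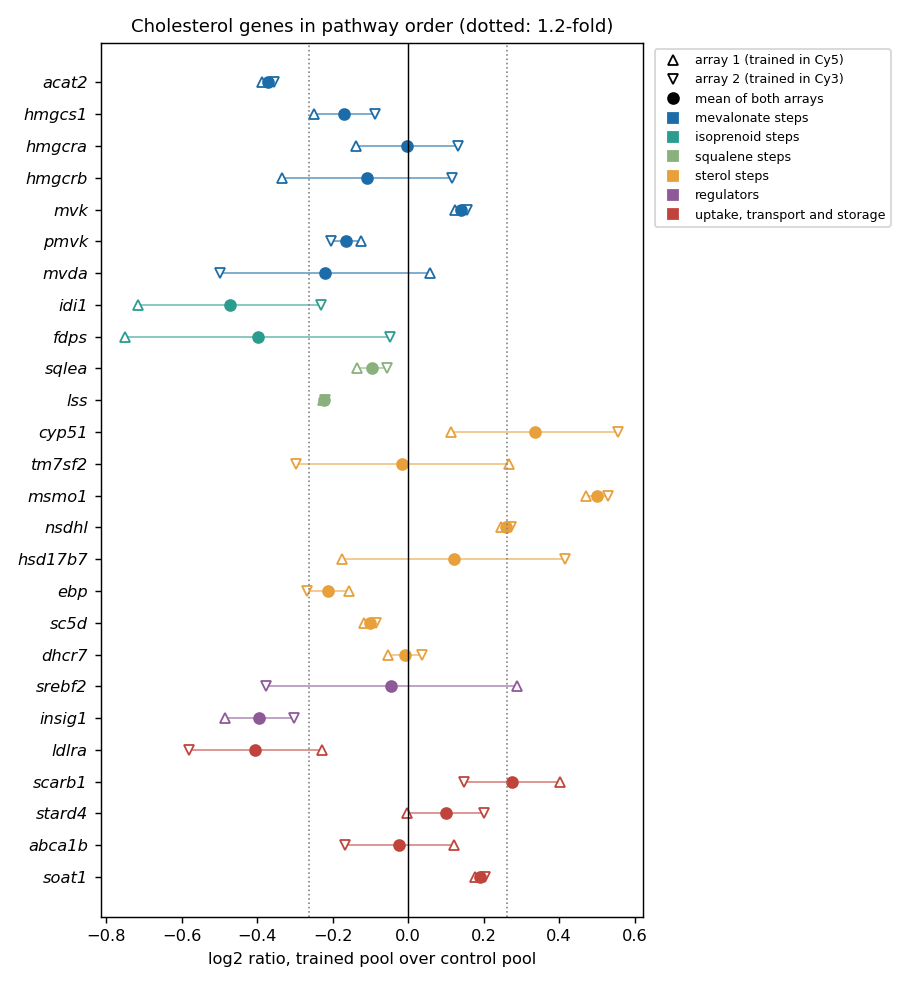
Log2 ratio of the trained over the control pool for the 26 measured members in pathway order, with triangles for each array and filled circles for their mean. The points of acat2 and insig1 lie left of the dotted line at 1.2-fold lower on both arrays, and those of msmo1 lie right of the line at 1.2-fold higher.

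**Figure D2:**
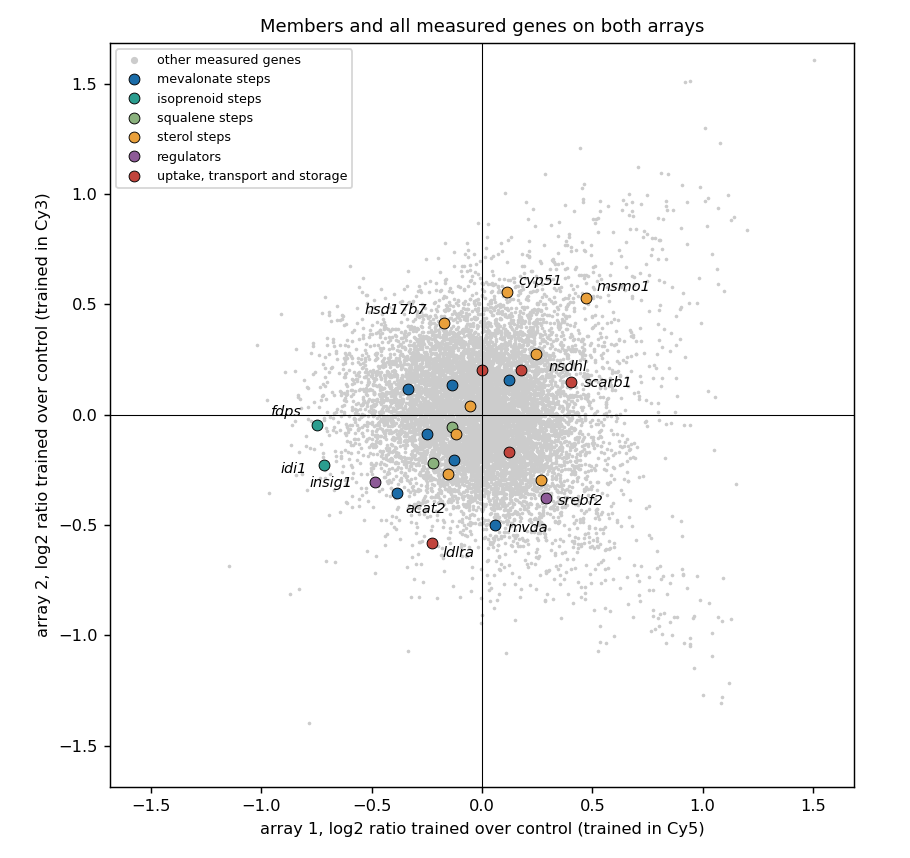
Log2 ratio of trained over control on array 1 (horizontal) against array 2 (vertical) for 11121 measured genes in grey and the members in colour by step. The lower left field, where a gene is lower in the trained pool on both arrays, holds 11 members, and the upper right field holds 6.

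The early steps, from acetyl-CoA to mevalonate and isopentenyl diphosphate, had 7 measured members. Of these, 3 were below 0 on each array, or 42.9%, against 22.1% of all genes. A further 1 was above 0, or 14.3%, against 24.3% of all genes. The other 3 of these members differed in sign between the arrays, and the median of the 7 was -0.16. The gene lowest among them was acat2, the cytosolic thiolase that joins acetyl-CoA units in the opening reaction. Its normalised log2 intensity was 12.21 and 12.41 in the trained pool on arrays 1 and 2, against 12.59 and 12.77 in the control pool. Both values of the trained pool lay below both of the control pool. The ratios were -0.39 and -0.35, with a mean of -0.37, or 1.29-fold lower in the trained pool, at percentile 1.42 of all measured genes. Of its other probes, 1 stood at -0.17, below 0 on each array, and 1 at -0.09, with opposite signs, so the 1.2-fold size rests on the brightest probe.

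The next enzyme, HMG-CoA synthase (hmgcs1), had -0.25 and -0.09 on the arrays, with a mean of -0.17. Its 3 other probes had means between -0.17 and -0.10, all below 0, although each was opposite in sign on the arrays. HMG-CoA reductase, the rate-limiting enzyme of the route and the target of statins, is encoded by hmgcra and hmgcrb in this fish. The normalised log2 intensity of hmgcra was 12.08 and 12.20 in the trained pool, against 12.22 and 12.07 in the control pool, so the pools overlapped. Its ratios were -0.14 and 0.13, with a mean of -0.0024, and its other probe stood at 0.0096. For hmgcrb the intensity was 7.69 and 7.88 in the trained pool, against 8.02 and 7.76 in the control pool. Its ratios of -0.33 and 0.12 disagreed in sign, and the pools overlapped here too. The 2 reductase genes thus gave no direction that held on both arrays.

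The 3 enzymes that turn mevalonate into isopentenyl diphosphate differed among themselves. Mevalonate kinase (mvk) was at 0.12 and 0.16, but a second probe had -0.46 and 0.27. Phosphomevalonate kinase (pmvk) was at -0.13 and -0.20, from 1 dim probe whose mean of -0.16 became -0.33 with a background offset of 0. Mevalonate diphosphate decarboxylase (mvda) was at 0.06 and -0.50, and its 2 other probes had means of 0.00024 and 0.04, so no direction is given for it.

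Both measured enzymes of the isoprenoid steps had ratios below 0 on each array, as did 22.1% of all measured genes. The isomerase idi1, which interconverts the isopentenyl and dimethylallyl units, had the lowest mean ratio of all members. Its normalised log2 intensity was 10.91 and 11.29 in the trained pool, against 11.62 and 11.52 in the control pool, without overlap. The ratios were -0.72 on array 1 and -0.23 on array 2, with a mean of -0.47, or 1.39-fold lower, at percentile 0.39 of all genes. The value on array 2 fell short of 1.2-fold, so idi1 did not count at that size. Farnesyl diphosphate synthase (fdps) had 10.70 and 11.37 in the trained pool, against 11.45 and 11.42 in the control pool. Nearly all of its difference came from array 1, with ratios of -0.75 and -0.05. A second fdps probe of about the same brightness gave 0.03 and 0.15, so the 2 probes of this gene disagreed in sign. The intensities of idi1, fdps and ldlra are given because of their low means, a choice made after their values were seen.

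Of the enzymes that make and cyclise squalene, 2 were measured and both were lower on each array by small amounts. Of all measured genes 22.1% were lower on both arrays. Squalene epoxidase (sqlea) stood at -0.14 and -0.06. Lanosterol synthase (lss), which closes the sterol rings, stood at -0.22 on each array, and its other probe stood at -0.07 and -0.03. Neither reached 1.2-fold.

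Of the 8 enzymes that trim lanosterol to cholesterol, 3 were higher on both arrays, or 37.5%, against 24.3% of all genes. Another 2 were lower, or 25%, against 22.1% of all genes. Differences between the groups of steps were not tested. The other 3 sterol enzymes differed in sign between the arrays, and the median of the 8 was 0.06. The highest member of the whole set was msmo1, a methylsterol oxidase that acts in the removal of methyl groups from the sterol ring. Its normalised log2 intensity was 12.52 and 12.48 in the trained pool, against 12.05 and 11.95 in the control pool. The 4 intensities did not overlap, and the arrays gave ratios of 0.47 and 0.53. The mean of 0.50, or 1.41-fold higher in the trained pool, lay at percentile 98.2 of all measured genes. It came from a single probe.

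The genes nsdhl and hsd17b7 encode the dehydrogenase and the reductase that act after msmo1 in the same demethylation. For nsdhl the ratios were 0.25 and 0.27, a mean of 0.26, with array 1 just short of the 1.2-fold size. For hsd17b7 they were -0.17 and 0.42, opposite in sign. The lanosterol demethylase cyp51, which acts before msmo1, had 0.11 and 0.56, with a mean of 0.34. Of its 4 probes 3 were higher on both arrays, with means of 0.34, 0.13 and 0.35, and 1 was lower on both, at -0.10.

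The other sterol enzymes stayed near or below 0. The isomerase ebp was at -0.16 and -0.27, and its 2 other probes had means of -0.26 and 0.02, each opposite on the arrays. The desaturase sc5d was at -0.12 and -0.09, but its second probe had -0.39 and 0.25. The reductase tm7sf2 was at 0.27 and -0.30, and its second probe showed the same split, at 0.12 and -0.14. The reductase dhcr7, which carries out the last reduction to cholesterol, was at -0.05 and 0.04, and its second probe had -0.35 and 0.23. For tm7sf2 and dhcr7 the means were -0.02 and -0.0086, with no shared sign on the arrays.

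**Figure D3:**
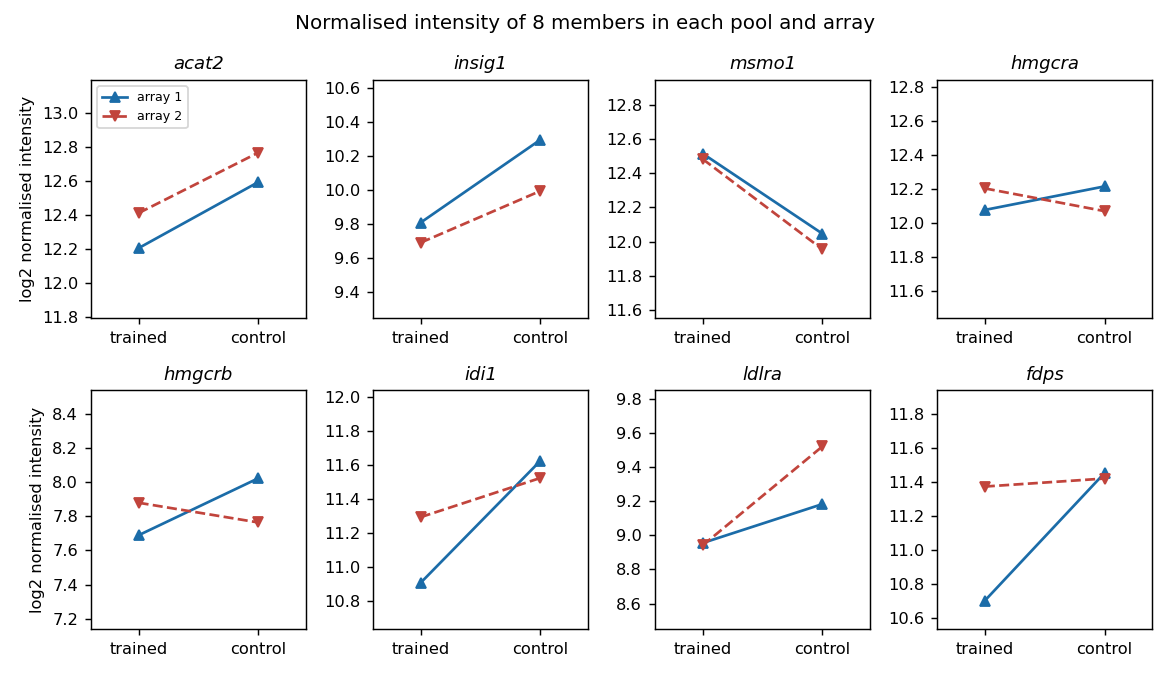
Normalised log2 intensity of 8 members in the trained and control pools on array 1 (solid line) and array 2 (dashed line), each panel spanning the same height. On both arrays the trained point lies below the control point for acat2, insig1, idi1, fdps and ldlra and above it for msmo1, while the lines of hmgcra and hmgcrb slope opposite ways.

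Among the regulators, insig1 was lower and srebf2 gave no shared direction. INSIG-1 holds the SREBP complex in the endoplasmic reticulum, and its own gene is an SREBP target in mammals. The normalised log2 intensity of insig1 was 9.81 and 9.69 in the trained pool, against 10.29 and 9.99 in the control pool, without overlap. The ratios were -0.49 and -0.30, with a mean of -0.39, or 1.31-fold lower, at percentile 1.09. Of its other probes, 1 stood at -0.10, opposite in sign on the arrays, and 1 at -0.13, below 0 on each, so this size too was seen on 1 of 3 probes. The gene of SREBP-2 itself, srebf2, had 0.29 and -0.38, with a mean of -0.04. Its second probe repeated that split at 0.23 and -0.39, so both probes had more normalised Cy5 than Cy3 signal on each array. The cause was not tested. A dimmer srebf2 probe was at -0.06 and -0.20.

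Of the uptake, transport and storage genes 5 were measured, and they went both ways, with a median of 0.10. The LDL receptor gene ldlra, which takes up lipoprotein cholesterol, had 8.96 and 8.94 in the trained pool, against 9.18 and 9.52 in the control pool. Its ratios were -0.23 and -0.58, with a mean of -0.40, or 1.32-fold lower, at percentile 0.98, from 1 probe. Array 1 fell short of 1.2-fold, so ldlra did not count at that size.

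The HDL receptor gene scarb1 was the highest of this group, at 0.40 and 0.15, with a mean of 0.28. Its second probe, above background in 3 of 4 channels, had 0.23 and 0.14. Acyl-CoA cholesterol acyltransferase (soat1), which esterifies cholesterol for storage, was at 0.18 and 0.20. A second soat1 probe, above background in only 1 of 4 channels, had -0.03 and -0.12, so the soat1 probes disagreed in sign. The sterol carrier stard4 was at -0.0025 and 0.20, and the cholesterol exporter abca1b at 0.12 and -0.17. The arrays thus gave no shared direction for those 2 genes.

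In all, the normalised intensities of the pools did not overlap for 15 of 26 members, or 57.7%, against 33.4% of all measured genes. Such a gap requires 1 shared sign on both arrays, which 65.4% of members and 46.4% of all genes had. It is therefore not a result separate from the counts by sign. The members that reached 1.2-fold along the dye in place of the condition numbered 2 of 26, against 5.83% of all genes. At the level of single probes, 16 of 49 measured member probes were lower on both arrays and 9 were higher, or 32.7% and 18.4%. Over all 30886 measured probes these shares were 23.2% and 22.9%. At 1.2-fold, 2 member probes were lower, against 1.18% of all probes, and 1 was higher, against 3.13%. None reached 1.5-fold, against 0.518%. Along the dye, 4 member probes reached 1.2-fold, against 5.21%.

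Agreement between probes of a member was moderate. Of 14 members with 2 or more measured probes, 8 had the mean ratio of all their probes on the same side of 0, which is 57.1%, against 56.7% of 6037 such genes on the array. The median SD between probes was 0.13 among these members and 0.09 among all such genes. The widest spans were 0.49 for fdps and 0.45 for cyp51. The 8 members with all means on the same side were acat2, hmgcs1, lss, tm7sf2, sc5d, dhcr7, srebf2 and insig1. Their means lay below 0, though those of tm7sf2 were only -0.015 and -0.0099. The share of the 6037 genes with all probes below 0 was not computed, so no direction is read from this count. For tm7sf2, dhcr7 and srebf2 the brightest probe was opposite in sign on the arrays. Its mean kept its sign in 7, 5 and 5 of 8 processing alternatives. Among these, the looser and absent detection filters could only repeat the reported value. In acat2, lss, insig1, sc5d and tm7sf2 the brightest probe was also the lowest. The other 12 members rest on 1 measured probe, among them idi1, ldlra, msmo1 and nsdhl.

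**Figure D4:**
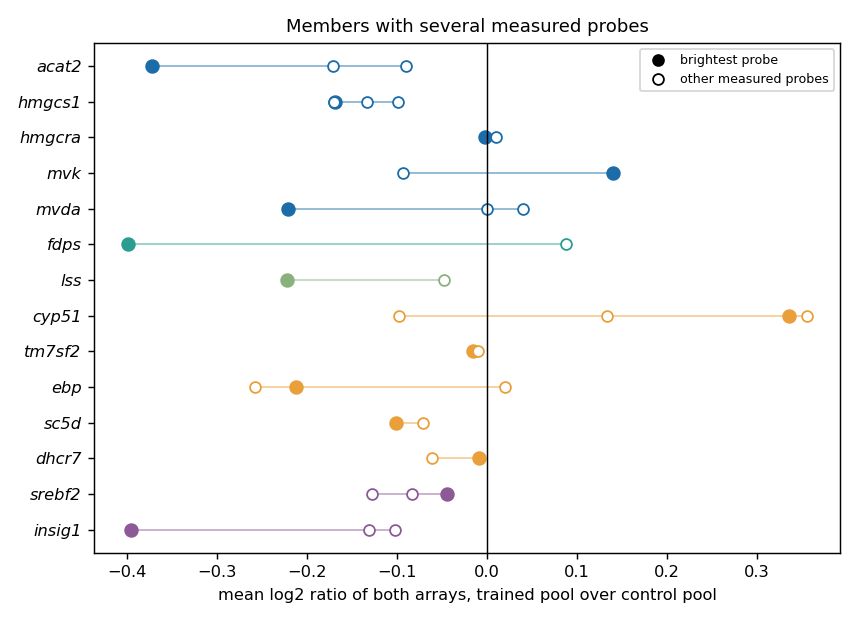
Mean log2 ratio of trained over control for each measured probe of the 14 members with several probes, the brightest filled and the others open. The probes of fdps and cyp51 lie on both sides of 0, and those of acat2, hmgcs1, lss and insig1 lie below 0.

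A list of 56 neighbouring genes covered other sterol enzymes, SREBP processing, lysosomal and sterol-carrier transport, export, bile acid synthesis and lipoprotein remodelling. Of its 31 measured genes 12 were above 0 on each array, or 38.7%, against 24.3% of all genes. Another 5 were below 0, or 16.1%, against 22.1%, and 14 differed in sign. The median was 0.14, against -0.0027 over all measured genes. At 1.2-fold 3 were higher, or 9.68%, against 3.74% of all genes, and 0 were lower, against 1.35%. The 3 were hsd3b7, an enzyme of bile acid synthesis, cetp, which transfers cholesteryl esters between lipoproteins, and lipca, the hepatic lipase. The ratios of hsd3b7 were 0.28 and 0.50, with a mean of 0.39, and its second probe stood at 0.30. Those of cetp were 0.49 and 0.33, with a mean of 0.41 from 1 probe, which became 0.67 with an offset of 0 and 0.97 with the deposited ratios. Those of lipca were 0.34 and 0.43, with a mean of 0.38, and its second probe stood at 0.33. With the mean over a gene's probes the median of the list was 0.061.

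Further neighbouring genes were looked at after their values were seen. The gene mylipa, whose mammalian counterpart marks the LDL receptor for breakdown, stood at 0.82 and 0.16, with a mean of 0.49, whereas its paralogue mylipb stood at -0.31 and -0.11, with a mean of -0.21. The first enzyme of bile acid synthesis, cyp7a1, stood at 0.66 and 0.13, but a second probe stood at -0.02 and -0.53. For npc2.1, a lysosomal sterol carrier, the brightest probe was opposite in sign on the arrays, at 1.15 and -0.32. Its other probes were higher on both, at 0.80 and 0.25 and at 1.04 and 0.25.

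The summed marker intensity was higher in the trained pool on both arrays for liver, skin and heart. It was higher by smaller amounts for myelin and macrophages. For intestine, brain and nerve, and fast muscle the 2 arrays differed in direction. Of all measured genes 24.3% were above 0 on both arrays and 22.1% were below it on both. Of 6 measured liver markers 4 were above 0 on each array and 0 were below it, and their median was 0.52. The log2 of their summed intensity was 18.08 and 18.03 in the trained pool, against 17.50 and 17.71 in the control pool. Each such sum was taken on the linear scale before the log2, so the brightest markers of a list weigh most in it. Of 6 intestine markers 4 were higher and 0 lower, with a median of 0.34, and their sum was 15.80 and 16.09 in the trained pool, against 15.82 and 15.70 in the control pool. Of 4 measured markers of brain and nerve 3 were higher, with a median of 0.22. Their sum was 14.15 and 13.95 in the trained pool, against 13.83 and 14.02 in the control pool. The other snap25a probes stood at 0.14 and -0.18, at 0.04 and 0.23, and at -0.23 and 0.32. Those of gfap stood at 0.23 and -0.19 and at 0.03 and 0.09. For stmn1b, opposite by its brightest probe, the other probe stood at 0.36 and 0.04. All 4 fast muscle markers were opposite on the arrays, with sums of 18.97 and 18.80 in the trained pool, against 18.89 and 19.19 in the control pool.

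Skin markers summed to 18.21 and 18.16 in the trained pool, against 18.02 and 18.04 in the control pool, and heart markers to 12.74 and 12.80 in the trained pool, against 12.36 and 12.23 in the control pool. For myelin the sums were 11.04 on both arrays in the trained pool, against 11.04 and 11.03 in the control pool. For macrophages they were 10.07 and 10.06 in the trained pool, against 10.07 and 9.95 in the control pool. Of 3 skin markers 2 were higher on both arrays, and of 3 heart markers 2 were, by the brightest probe. The skin marker krt4 had only 0.0033 on array 2, and its 8 other probes included higher, lower and opposite ones. A second probe of cyt1 stood at -0.04 and 0.21. Those of krt5, opposite by its brightest probe, included higher and opposite ones. The other measured probes of the heart markers cmlc1 and myl7 were higher on both arrays. Of 3 measured macrophage markers 1 was higher and 1 lower, and of 2 myelin markers 0 were either. Of the 6 interrenal markers only star was measured, at -0.08 and 0.44, and 3 others had probes that were not above background in all channels. Altogether 32 of 41 markers were measured, with at least 1 from each tissue list. The part of these tissues in the ratios of the cholesterol genes was not tested.

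Reprocessing was run in 8 alternatives. The looser and absent detection filters kept each member's brightest probe, so they could not change a member's value. Both forms of the deposited ratio gave equal values. For the 17 members with 1 direction on both arrays, the sign of the mean ratio stayed in place in each of the 8. The sizes moved more. Over these alternatives msmo1 ranged from 0.41 to 0.57, ldlra from -0.45 to -0.34, and idi1 from -0.48 to -0.30. The range was -0.38 to -0.21 for acat2, -0.42 to -0.21 for insig1, -0.41 to -0.16 for fdps and -0.23 to -0.04 for lss. It was -0.33 to -0.14 for pmvk, -0.17 to -0.08 for hmgcs1, -0.22 to -0.14 for ebp, -0.13 to -0.04 for sqlea and -0.15 to -0.03 for sc5d. Among the higher members it was 0.17 to 0.32 for nsdhl, 0.18 to 0.40 for cyp51, 0.28 to 0.43 for scarb1, 0.19 to 0.28 for soat1 and 0.02 to 0.20 for mvk. For msmo1 the 1.2-fold size held in all 8, but its single probe meant that the mean over probes could not differ either. With the deposited ratios 12 members were lower on both arrays, against 26% of all genes in that setting, and 5 were higher, against 25.1%. At 1.2-fold idi1, insig1 and ldlra were then lower, against 2.33% of all genes, and acat2 was not. With median centring only ldlra was 1.2-fold lower, against 0.432% of all genes. With the mean over a gene's probes no member was, against 0.872%.

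**Figure D5:**
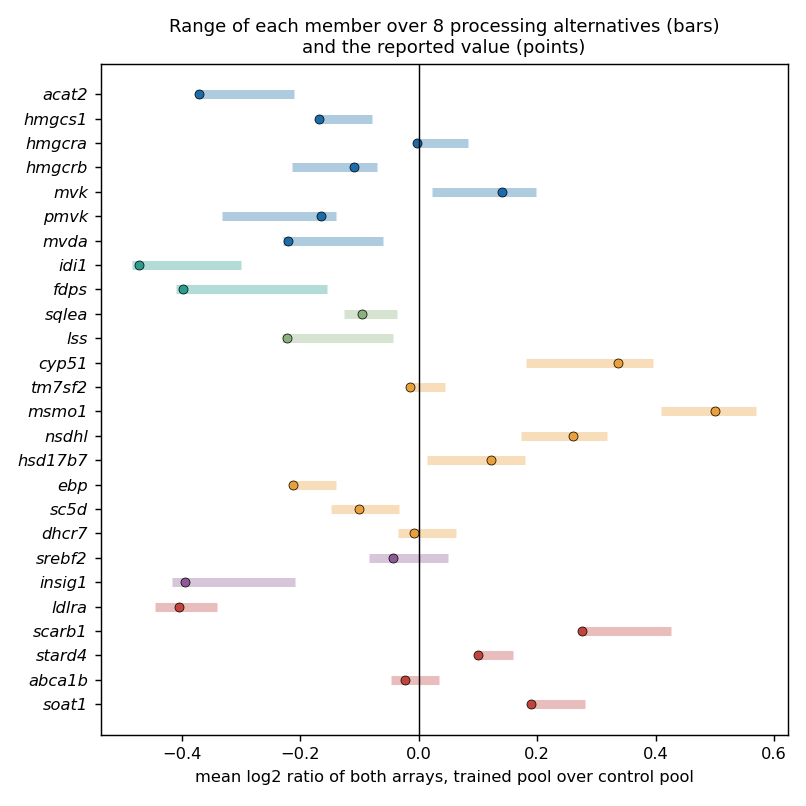
Mean log2 ratio of trained over control for each measured member as reported (points) and its range over 8 processing alternatives run on both arrays (bars). The bars of hmgcra, tm7sf2, dhcr7, srebf2 and abca1b cross 0, and that of msmo1 lies farthest to the right, from 0.41 to 0.57.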

How the data were processed

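RNA pools of trained and control larvae were compared on 2 Agilent arrays with exchanged dyes. Per the file headers, the deposited scanner files held median spot and background intensity in each channel and flags, which are not measurements and fall under the deposited other columns. Their log10 ratio is Cy5 over Cy3, made by the authors with Agilent Feature Extraction 10.5.1.1, per the submitters' processing notes. The deposited series value table of log10 ratios equals it with the sign of array 2 turned.

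Intensities were corrected by normexp with an offset of 50, then normalised within each array by loess in limma 3.58.1 (R 4.3.3), where control spots and 13 spots with an outlier flag had weight 0, and the sign of array 2 was turned. Intensities of single channels were taken after Aquantile scaling. Spots of a probe and then both arrays were averaged. A probe was measured when well above background in all 4 channels, which held for 30886 of 43603 probes, and no spot was saturated. Unversioned accessions matched 25171 probes to a RefSeq table of assembly GRCz12tu and left 18429 unnamed, and 3 probes had all their spots left out as outliers. The array files use build danRer6, so no coordinates are given. Python 3.11.15, numpy 2.4.6, pandas 2.3.3 and scipy 1.17.1 were used after that.

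With 1 pool per condition no test was possible, and counts by size stand in its place. Members and lists were chosen with earlier results of these data known. All members are named, with channel intensities for hmgcra, hmgcrb and those at least 1.2-fold on both arrays. Neighbouring genes were to be named when at least 1.2-fold on both arrays. Channel intensities of idi1, fdps and ldlra, and the neighbours mylipa, mylipb, cyp7a1 and npc2.1, were added after their values were seen. The normalisation was run on simulated arrays with known ratios and a random dye term. Those arrays held no dye trend with intensity, so the removal of such a trend was not tested. Alternatives were the offset at 0 or no background correction, centring on the median, both forms of deposited ratio, a looser or no detection filter, the mean over a gene's probes, each array alone and other fold thresholds.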

Additional observations from a re-analysis of the deposited data

How the results depend on the processing

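No paired analysis was possible because both arrays carry the same pair of pools. Of 17 members with 1 direction on both arrays, 17 kept the sign of their mean in 8 alternatives that use both arrays, and 9 kept that direction on each array in all 8. The looser and absent detection filters were bound to repeat the values of the members. The median of all genes moved by at most 0.04. Median centring turned the median log2 ratio of measured members to 0.000592, against 0.036 over all measured genes in that setting. That centring gave 6 lower members, against 12.6% of all genes. At 1.2-fold it gave 1 lower, against 0.432%, and 2 higher, against 3.82%. Under it the medians were -0.036 for synthesis, 0.16 for transport and 0.19 for the neighbouring list. No background correction, an offset of 0 and both forms of the deposited ratios each gave 2 members at least 1.2-fold higher, against 3.76%, 5.17% and 5.16% of all genes. The neighbouring median was 0.17 with an offset of 0, 0.099 with either form of the deposited ratios, 0.10 without a detection filter and 0.061 over all probes of a gene. The mean over probes left 0 members at 1.2-fold lower. Counts at a threshold of 1.1-fold are not reported here, because no share of all genes is given for that size. At 1.5-fold 0 were either way in the reported setting, against 0.692% of all genes. The 8 alternatives also gave 0, against shares of all genes from 0.549% with the mean over probes to 1.08% with the deposited ratios. With array 2 alone and array 1 alone, 11 and 10 members were higher, against 52.6% and 49.7% of all genes, and 15 and 16 were lower, against 47.4% and 50.3%. At 1.2-fold 4 and 4 were higher, against 16.1% and 15.2%, and 7 and 5 were lower, against 13.3% and 15.6%. At 1.5-fold there were 0 and 2 (idi1 and fdps), against 4.18% and 4.48%. The medians on those arrays were -0.071 and -0.12 for members, -0.056 and -0.14 for synthesis, 0.15 and 0.12 for transport, and 0.092 and 0.069 for the neighbouring list. Apart from the construction of each alternative, the cause was not tested. The 2 forms of deposited ratio gave equal values. The dimmest members were pmvk, soat1 and hmgcrb, at a log2 brightness of 6.64, 7.31 and 7.84.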
